A study of Bos grunniens and Bos grunniens x Bos taurus with 12 samples.

Results

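The genes described here are the cyclins, the cyclin-dependent kinases (CDKs), the CDC genes, the MCM genes and the Aurora, Polo-like, BUB and MAD2 genes of the yak testis translatome. They were chosen by symbol, as the rows whose symbol is CCN followed by a letter and a digit, CDK, CDC or MCM followed by a number, AURKA to AURKC, or begins with PLK, BUB or MAD2L. This rule took 68 of the 20965 genes in the deposited tables, of which 13662 carry a symbol. By function, the 68 members were 6 cell cycle cyclins, 4 cell cycle CDKs, 3 phosphatases, 9 replication genes, 5 mitotic kinases, 4 checkpoint genes and 7 genes of the anaphase-promoting complex (APC/C) and of ubiquitin transfer. The remaining members were 5 other cyclins, 5 transcriptional CDKs, 7 other CDKs, 7 genes of the small GTPase CDC42 and its binding proteins, and 6 genes that share the CDC name but act elsewhere. A further 8 rows have no symbol, but their descriptions name cyclin-B2, cyclin-B3, cyclin-D2, cyclin-T1, CDK4, CDK20 and MAD2A, with 2 rows for CDK4. Their values are given beside the members under these names and are not in any count of members. *CCNB1*, *AURKC*, *CDC25A*, *MCM4*, *MCM8* and *BUB1B* were not analysed here.

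In Ribo-seq, RNA outside ribosomes is digested and the pieces left inside them are sequenced, so that a count reflects ribosomes on an mRNA. Testes of male yaks of 6 months (Y6M), 18 months (Y18M) and 4 years (Y4Y) and of male cattle–yaks (CY) for which the labels give 4 years were used, with 3 libraries per group and 12 in all. The cattle–yaks came from Jersey bulls and Gannan yak cows, and no group carried a transgene or treatment. Each library is taken as 1 animal. The labels state that all testes were obtained by castration, whereas the study's methods state that the yaks were euthanised and the cattle–yaks castrated, so if the methods hold, collection and genotype cannot be told apart in the comparison of CY with Y4Y. Translation levels are given as FPKM, that is fragments scaled by gene length and by the number of mapped reads, which allows genes to be compared per length. Differences are log2 fold changes from edgeR on the counts, and a gene was called when the adjusted p was below 0.05 and the change at least 2-fold.

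A dividing cell passes from G1, driven by D-type cyclins with CDK4 or CDK6, through S phase, driven by cyclin E and cyclin A with CDK2, to M phase, driven by cyclin A and cyclin B with CDK1. MCM proteins form the helicase that is loaded onto replication origins by CDC6, and CDC7 and CDC45 are needed to fire them. CDC25 phosphatases remove the inhibitory phosphates of CDKs, Aurora and Polo-like kinases build the spindle, the BUB and MAD2 proteins delay anaphase until chromosomes are attached, and CDC20 then activates the APC/C, which marks cyclin B for destruction. In the testis, spermatogonia divide by mitosis and spermatocytes by meiosis. Cyclin A1 is a germ cell form of cyclin A that is needed for male meiosis in mice, and cyclin A2 is the form found in dividing cells in general.

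Total counts per library were 25816963 to 37167651 in Y6M, 21309151 to 24542362 in Y18M, 16304058 to 17862516 in Y4Y and 38437889 to 52616039 in CY. The members took 0.143% to 0.213% of these counts in Y6M, 0.204% to 0.318% in Y18M, 0.329% to 0.354% in Y4Y and 0.380% to 0.412% in CY. In Y6M 61 members had a mean of 1 FPKM or more, as did 63 in each of the other groups. The 3 libraries of Y18M stood apart from each other. Replicate 2 held the highest of the 3 values for 35 of the 68 members, replicate 3 for 27 and replicate 1 for 6. The same count over all genes was not made. The summed FPKM of 5 markers of elongating spermatids was 1.84, 6762 and 13.2 in the 3 libraries of Y18M, against 0.96 to 1.22 in Y6M and 8364 to 11409 in Y4Y. Most of this sum was *TNP1*, with a mean of 2009 FPKM in Y18M and 8989 in Y4Y. Values of Y18M are therefore given for each library.

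Translation levels of the members spanned a wide range in every group. *CDC42*, which encodes a GTPase that organises actin and cell polarity, was the highest member in all 4 groups, with a mean of 520.5, 656, 399 and 1119 FPKM in Y6M, Y18M, Y4Y and CY. In Y4Y it was followed by the ubiquitin-conjugating enzyme gene *CDC34* with 319 FPKM, and the 2 genes did not overlap between libraries (385 to 409 against 291 to 344). In CY, *CDC42SE2* and the HSP90 co-chaperone gene *CDC37* came next with 363 and 308 FPKM. The S-phase helicase genes also had high levels, and *MCM7* was the fifth member in CY with 126 FPKM. *CDC25B*, *PLK3*, *CDK3*, *CDK15*, *CDK18* and *CDC20B* had a mean of under 2 FPKM in CY.

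**Figure D1:**
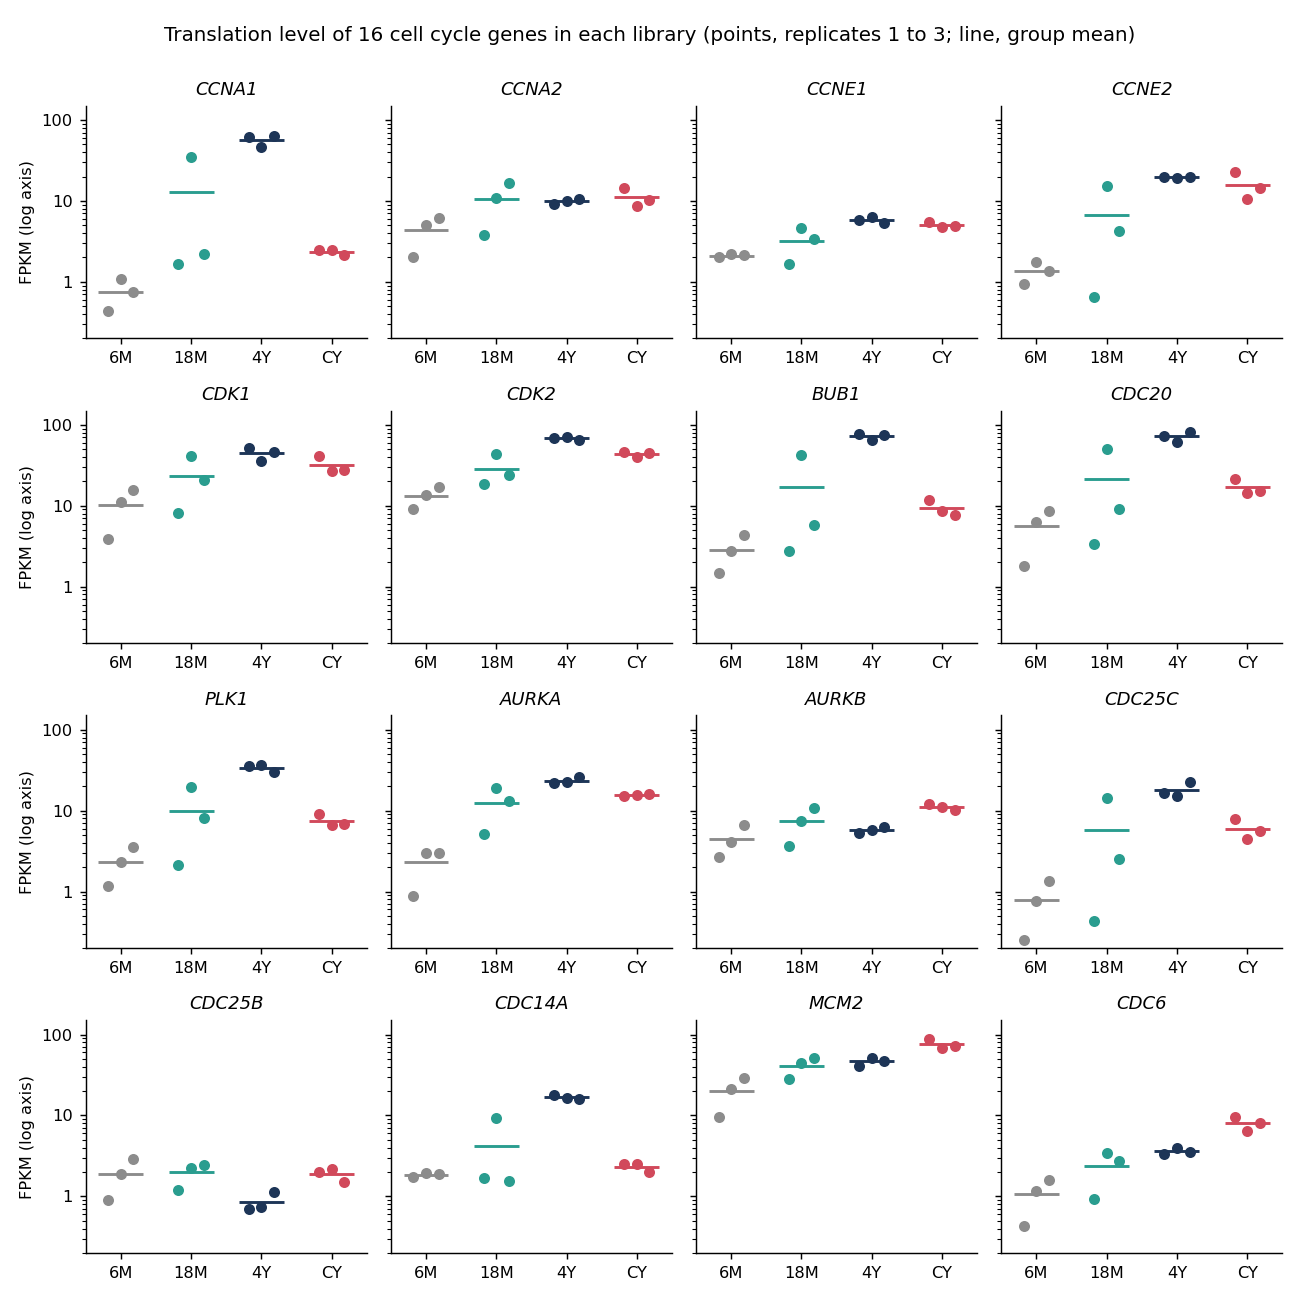
FPKM on a log axis of 16 cell cycle members in each of the 12 libraries (6M, 18M and 4Y are yaks of 6 months, 18 months and 4 years and CY is cattle–yak). Points are replicates 1 to 3 from left to right and lines are group means. *CCNA1* lay at 45.7 to 63.4 FPKM in Y4Y and at 2.13 to 2.47 in CY, while *CCNA2* overlapped between them.

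In cattle–yak compared with yak of 4 years, members were called in both directions, also within a role. Cyclin A1, the spindle checkpoint kinase *BUB1*, the anaphase activator *CDC20*, the Polo-like kinases *PLK1* and *PLK4* and the phosphatases *CDC25C* and *CDC14A* had lower translation levels in CY. The replication licensing gene *CDC6*, the phosphatase gene *CDC25B*, the cyclin G1 gene *CCNG1* and *CDC42* had higher levels. For *CCNA2*, *CCNE1*, *CCNE2*, *CDK1* and the MCM genes no change was called. Of the 68 members, all of which passed the filter, 9 were called higher and 11 lower, that is 13.2% and 16.2%. Among all 16498 genes tested, 17.1% were called higher and 27.0% lower, so both shares of the members were below those of all genes and the members are described one by one. A further 16 members had an adjusted p below 0.05 with a change of less than 2-fold, 13 of them higher and 3 lower in CY. The median log2 fold change was 0.07 over the members and −0.00 over all genes tested. Fewer cells of a type and less ribosome-bound RNA per cell cannot be told apart in these bulk samples.

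Markers of the cell types of the testis also differed between CY and Y4Y. Over all genes tested, 17.1% were called higher and 27.0% lower, and the counts of called markers stand against these shares. The summed FPKM of 6 round spermatid markers was 1183 to 1961 in Y4Y and 3.62 to 9.77 in CY, with 6 of 6 lower, and that of 5 elongating spermatid markers was 8364 to 11409 and 1.13 to 26.5, with 5 of 5 lower. For 8 spermatocyte markers it was 878 to 961 and 356 to 541, with 3 of 8 lower. For 7 spermatogonial markers it was 647 to 941 and 1471 to 1626, with 4 of 7 higher. Somatic markers gave 609 to 842 and 1079 to 1341 for 6 Sertoli cell genes, 86.3 to 218 and 672 to 1134 for 3 Leydig cell genes, and 211 to 219 and 780 to 1291 for 5 peritubular myoid cell genes. Of those tested, 2 of 5, 3 of 3 and 5 of 5 were called higher. For 4 macrophage genes the sum was 222 to 256 in Y4Y and 45.4 to 56.3 in CY, with 2 of 4 lower and 0 higher, and for 5 endothelial genes it was 12.7 to 15.3 in Y4Y and at most 14.1 in CY, with 1 of 5 lower and 0 higher. Single genes carried some sums. Most of the macrophage sum in Y4Y was *AIF1*, with a mean of 194 FPKM against 13.1 in CY. Most of the Sertoli cell sum was *INHA*, with a mean of 569 in Y4Y and 870 in CY. *TNP1* made up most of the elongating spermatid sum in Y4Y, with a mean of 8989. *STAR* made up most of the Leydig cell sum, with a mean of 111 in Y4Y and 624 in CY. The Sertoli cell marker *GATA1* had no count in any library of CY. The part of these markers in the results on the members was not tested.

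Among the cyclins of the cell cycle, *CCNA1* fell most. Its FPKM was 61.2, 45.7 and 63.4 in the 3 libraries of Y4Y and 2.47, 2.46 and 2.13 in those of CY. The groups lay far apart, and the difference was 22.6-fold (log2 fold change −4.5 ± 0.18 (SE), adjusted p = 7.26e-07). *CCNA2*, the general cyclin A, was at 9.05, 9.95 and 10.7 in Y4Y and 14.3, 8.58 and 10.2 in CY, and the groups overlapped (log2 fold change 0.17 ± 0.22 (SE), adjusted p = 0.511). The 2 cyclin A genes thus differed in CY, where the germ cell form was at a lower level than the general form. The E-type cyclins, which drive entry into S phase, overlapped between the groups. *CCNE2* was at 19.9, 19.4 and 19.8 in Y4Y and 22.6, 10.7 and 14.6 in CY (log2 fold change −0.29 ± 0.26 (SE), adjusted p = 0.364), and *CCNE1* changed by −0.20 ± 0.19 (log2, adjusted p = 0.381). The D-type cyclin gene *CCND3* was at 9.67, 10.5 and 10.8 in Y4Y and 18.1, 24.3 and 18.2 in CY. All libraries of CY were above those of Y4Y, but the change stayed under 2-fold (log2 fold change 0.86 ± 0.18 (SE), adjusted p = 0.00329). *CCND1* had 0.36 ± 0.25 on the log2 scale (adjusted p = 0.231).

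The rows without a symbol added the other cyclins of this group. Cyclin-B2, a partner of CDK1 at entry into M phase, was at 58.2, 54.6 and 51.9 in Y4Y and 22.9, 15.7 and 18.4 in CY, lower in every CY library (log2 fold change −1.42 ± 0.18 (SE), adjusted p = 1.70e-04). Cyclin-B3, a B-type cyclin with a known role in meiosis, was at 10.4, 12.5 and 10.03 in Y4Y and 31.2, 23.2 and 21.1 in CY, higher in every CY library (log2 fold change 1.22 ± 0.21 (SE), adjusted p = 0.00120). The 2 B-type cyclins therefore changed in opposite directions. With all 12 libraries in the fit, the adjusted p was 0.0628 for cyclin-B2 and 0.0604 for cyclin-B3. Cyclin-D2 was at 45.7, 83.8 and 51.2 in Y4Y and 29.6, 49.8 and 26 in CY and missed the threshold (log2 fold change −0.76 ± 0.30 (SE), adjusted p = 0.0501). Without replicate 2 of CY it was called lower at −1.09 on the log2 scale (adjusted p = 0.00966).

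Of the kinases that these cyclins activate, none of the 4 members was called, against 17.1% higher and 27.0% lower of all genes tested. *CDK1*, the kinase of M phase, was at 52.2, 35.6 and 45.8 in Y4Y and 41.6, 27.2 and 27.5 in CY, and the groups overlapped (log2 fold change −0.5 ± 0.22 (SE), adjusted p = 0.0783). *CDK2*, which pairs with cyclins E and A, was at 69.7, 70.8 and 64.3 in Y4Y and 45.5, 39.9 and 44.4 in CY. It was lower in all CY libraries, at a change below 2-fold (log2 fold change −0.70 ± 0.12 (SE), adjusted p = 8.79e-04). *CDK6* was not called (−0.44 ± 0.17, adjusted p = 0.0533), and *CDK3* was at under 1 FPKM in all libraries. The first row described as CDK4, the G1 kinase, was at 33.2, 31.8 and 33.5 in Y4Y and 57.95, 81.3 and 72.3 in CY and was called higher (log2 fold change 1.11 ± 0.14 (SE), adjusted p = 2.06e-04). The second CDK4 row had at most 0.08 FPKM in any library, and reads of the 2 rows could be split between them.

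All 3 phosphatases were called, in both directions, against 17.1% higher and 27.0% lower of all genes tested. *CDC25C*, which activates CDK1 at the start of M phase, was at 16.6, 15 and 22.8 in Y4Y and 7.82, 4.43 and 5.64 in CY, a 3.0-fold lower level in CY (log2 fold change −1.58 ± 0.26 (SE), adjusted p = 8.37e-04). *CDC14A*, a phosphatase that opposes CDK phosphorylation, was at 17.6, 16.3 and 16.1 in Y4Y and 2.5, 2.5 and 1.99 in CY, which was 7.72-fold lower (log2 fold change −2.95 ± 0.17 (SE), adjusted p = 3.33e-06). *CDC25B* was low throughout, with 0.69, 0.73 and 1.12 in Y4Y and 2.02, 2.16 and 1.52 in CY, and was higher in CY (log2 fold change 1.17 ± 0.32 (SE), adjusted p = 0.0120). Its change was 0.65 on the log2(FPKM + 1) scale, below the threshold. *CDC25C* was not called with all 12 libraries in the fit (−1.58, adjusted p = 0.156).

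No replication gene was called lower in CY, while over all genes tested 17.1% were called higher and 27.0% lower. Of 9 members, *CDC6* was called higher, 4 MCM genes had an adjusted p below 0.05 at a change of less than 2-fold, and the remaining 4 were not called. *CDC6*, the loader of the helicase, was at 3.3, 3.91 and 3.56 in Y4Y and 9.5, 6.5 and 8.05 in CY (log2 fold change 1.17 ± 0.21 (SE), adjusted p = 0.00122). The helicase subunit *MCM2* was at 40.9, 51.3 and 47.5 in Y4Y and 88.6, 67.2 and 71.7 in CY (log2 fold change 0.72 ± 0.15 (SE), adjusted p = 0.00321). All libraries of CY were above all libraries of Y4Y for both genes, but the call of *CDC6* was lost on the log2(FPKM + 1) scale, at 0.96. The log2 fold change of the other subunits was 0.75 ± 0.19 for *MCM3* (adjusted p = 0.00893), 0.5 ± 0.13 for *MCM5* (adjusted p = 0.0101), 0.25 ± 0.16 for *MCM6* (adjusted p = 0.203) and 0.70 ± 0.12 for *MCM7* (adjusted p = 9.44e-04). *MCM9*, a relative of the helicase subunits that acts in DNA repair and meiotic recombination, was at 2.27, 2.53 and 2.14 in Y4Y and 1.91, 2.32 and 2.23 in CY and overlapped (−0.06 ± 0.19, adjusted p = 0.779). The origin-firing genes *CDC7* and *CDC45* overlapped too, at −0.03 ± 0.15 and −0.20 ± 0.17.

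Mitotic kinases differed among themselves. *PLK1*, which acts in spindle assembly and cytokinesis, was at 35.3, 36.1 and 29.8 in Y4Y and 9.06, 6.57 and 6.87 in CY and was 4.46-fold lower (log2 fold change −2.16 ± 0.18 (SE), adjusted p = 1.92e-05). *PLK4*, which starts centriole duplication, was at 11.3, 9.44 and 15.2 in Y4Y and 6.25, 3.97 and 4.49 in CY (log2 fold change −1.28 ± 0.25 (SE), adjusted p = 0.00217). The Aurora kinases differed in direction without reaching 2-fold. *AURKA*, which acts at spindle poles, was at 21.8, 22.6 and 26.2 in Y4Y and 15.3, 15.5 and 16.2 in CY, lower in every library (log2 fold change −0.58 ± 0.13 (SE), adjusted p = 0.00454). *AURKB*, the kinase of the chromosomal passenger complex, was at 5.3, 5.73 and 6.2 in Y4Y and 12.2, 11.1 and 10.2 in CY, higher in every library (log2 fold change 0.92 ± 0.17 (SE), adjusted p = 0.00177). Without replicate 3 of Y4Y, *AURKB* was called higher (1.02, adjusted p = 0.0028).

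Among checkpoint genes *BUB1* fell, and its partner *BUB3* was not called. *BUB1*, a kinetochore kinase of the spindle checkpoint, was at 77.3, 65.8 and 74.4 in Y4Y and 11.6, 8.65 and 7.71 in CY, which was 7.76-fold lower (log2 fold change −2.96 ± 0.19 (SE), adjusted p = 5.53e-06). *BUB3*, which brings BUB1 to kinetochores, was at 63.05, 64.1 and 72.1 in Y4Y and 86.6, 69.5 and 92.1 in CY, and the groups overlapped (log2 fold change 0.33 ± 0.14 (SE), adjusted p = 0.0632). The row described as MAD2A, the protein that holds CDC20 inactive, was at 72.8, 72.1 and 89.98 in Y4Y and 72.1, 43.5 and 78.01 in CY, and these groups overlapped as well (log2 fold change −0.27 ± 0.22 (SE), adjusted p = 0.316). *MAD2L2*, a subunit of the translesion polymerase zeta, had a lower level at under 2-fold (−0.84 ± 0.21, adjusted p = 0.00835), and *MAD2L1BP*, which helps to silence the checkpoint, was not called (−0.23 ± 0.20).

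The activator of the APC/C was called lower, and its core subunits were not called. *CDC20* was at 72.7, 61.4 and 81.6 in Y4Y and 21.4, 14.2 and 15.3 in CY, 4.18-fold lower (log2 fold change −2.06 ± 0.20 (SE), adjusted p = 4.42e-05). *CDC20B*, a relative of *CDC20*, was at 2.84, 2.56 and 3.94 in Y4Y and 0.28, 0.12 and 0.20 in CY (log2 fold change −3.91 ± 0.42 (SE), adjusted p = 7.30e-05). *CDC34*, which conjugates ubiquitin with SCF ligases, was at 291, 321 and 344 in Y4Y and 92.7, 88.4 and 109 in CY (log2 fold change −1.69 ± 0.12 (SE), adjusted p = 8.84e-06). These 3 genes were lower in each CY library than in any Y4Y library. The core subunits of the APC/C were not called, with −0.05 ± 0.15 for *CDC16*, −0.17 ± 0.23 for *CDC26*, −0.21 ± 0.16 for *CDC27* and 0.91 ± 0.15 for *CDC23*. Only *CDC23* of these 4 had an adjusted p below 0.05 (9.71e-04), and it was higher in CY.

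**Figure D2:**
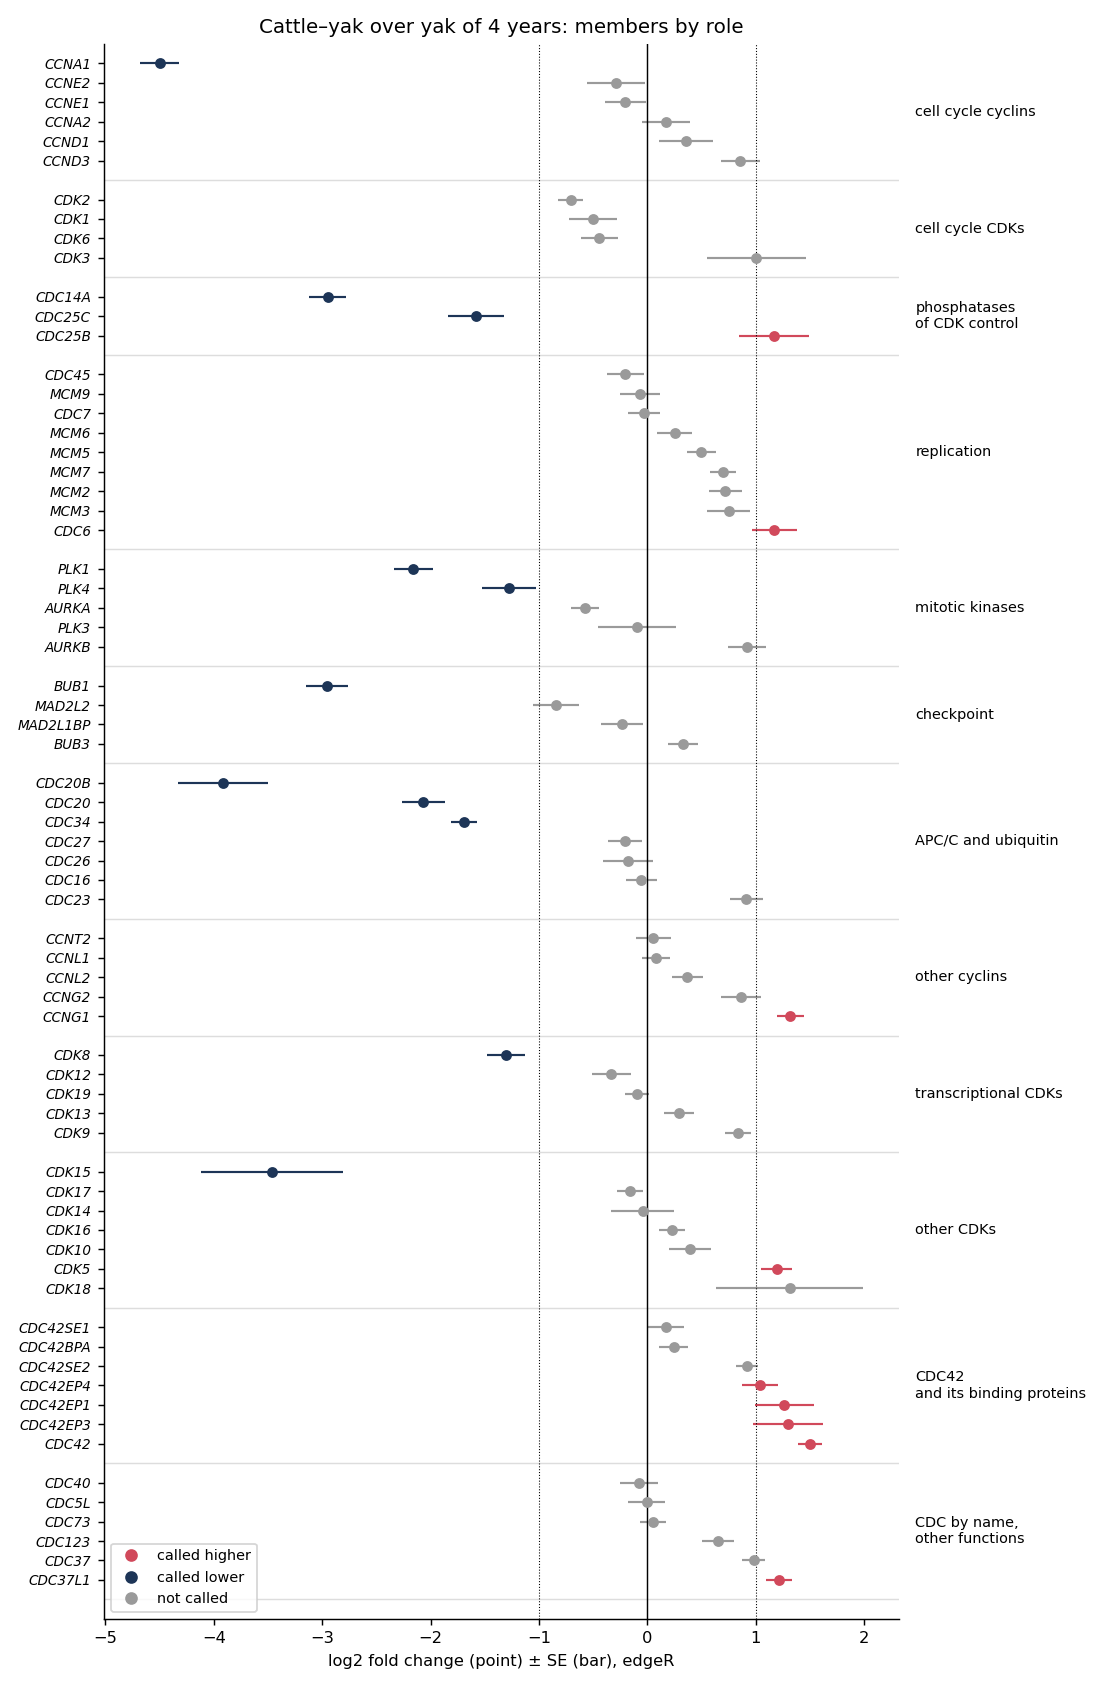
Log2 fold change of CY over Y4Y from edgeR (x axis) of all 68 members, grouped by role, with bars for ± 1 SE and dotted lines at 2-fold. Points are coloured by call. The lower calls reach −4.50 at *CCNA1*, the higher calls end at 1.5 at *CDC42*, and the replication genes lie between −0.20 and 1.17.

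Outside the cell cycle core, higher levels in CY prevailed among the called members. Of the 7 members around *CDC42*, 4 were called higher and none lower, against 17.1% higher and 27.0% lower of all genes tested. *CDC42* itself was at 385, 409 and 403 in Y4Y and 1106, 1166 and 1085 in CY (log2 fold change 1.5 ± 0.11 (SE), adjusted p = 9.77e-06). Its effector genes *CDC42EP1*, *CDC42EP3* and *CDC42EP4*, which act on actin and septins, had 1.26 ± 0.27, 1.30 ± 0.32 and 1.04 ± 0.17 on the log2 scale (adjusted p = 0.00363, 0.00751 and 6.98e-04). All 3 calls were lost on the log2(FPKM + 1) scale, at 0.88, 0.96 and 0.95, and *CDC42EP4* also lost its call without replicate 1 of CY, with a change of 0.998. *CCNG1*, which encodes cyclin G1, was at 77.2, 87.2 and 95.1 in Y4Y and 171, 217 and 199 in CY (log2 fold change 1.32 ± 0.12 (SE), adjusted p = 3.30e-05). *CDK5*, a kinase activated by non-cyclin partners and best known from neurons, was at 20.4, 26.6 and 26.2 in Y4Y and 50.8, 54.1 and 62.95 in CY (log2 fold change 1.19 ± 0.14 (SE), adjusted p = 1.43e-04). *CDC37L1*, a relative of the co-chaperone gene *CDC37*, was at 30.01, 28.9 and 29.1 in Y4Y and 72.4, 63.9 and 66.95 in CY (log2 fold change 1.22 ± 0.12 (SE), adjusted p = 4.46e-05). For all 4 genes given with their libraries, each CY library was above each Y4Y library. Lower levels were found for *CDK8* and *CDK15*. *CDK8*, of the Mediator kinase module, was at 24.5, 19.9 and 23.8 in Y4Y and 10.2, 8.4 and 14.01 in CY (log2 fold change −1.30 ± 0.18 (SE), adjusted p = 3.01e-04), while its paralog *CDK19* was not called (−0.10 ± 0.11). *CDK15* was lower from a mean of 0.81 ± 0.40 FPKM (SD, n = 3), with 52 counts over the 3 libraries of Y4Y and 11 over those of CY, which is an 11.8-fold lower rate (95% counting interval 6.08 to 25.1). In all, 48 of the 68 members were not called in this comparison.

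With age in yak, comparing Y4Y with Y6M, members were called in both directions. This comparison was added after the spread of Y18M had been seen. *CCNA1*, *BUB1*, *CDC25C*, *PLK1*, *CCNE2*, *CDC20*, *AURKA*, *CDC14A* and *PLK4* were between 4.41-fold and 50.8-fold higher in Y4Y. *CCND3*, *CDC42EP1*, *CDC123*, *CDC42SE1* and *CDK14* were between 3.42-fold and 8.0-fold lower. Of 67 members tested, 17 were called higher and 12 lower, or 25.4% and 17.9%. Over all 16133 genes tested, 31.0% were called higher and 24.7% lower, so the shares of the members were below those of all genes. The untested member was *CDK3*. The split depended on the scaling. With library size alone 28 members were called higher and 6 lower, with 6596 and 2493 of all genes. The median of all genes was then 0.57 higher on the log2 scale. The comparison of CY with Y4Y uses the same 3 Y4Y libraries, so both sets of values are set side by side only.

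Cyclins, a checkpoint gene and genes of the APC/C and of ubiquitin transfer were among the members called higher with age. *CCNA1* was at 0.43, 1.07 and 0.75 FPKM in Y6M, against a mean of 56.8 ± 9.62 (SD, n = 3) in Y4Y (log2 fold change 5.67 ± 0.29 (SE), adjusted p = 3.96e-07). *CCNE2* was at 0.93, 1.75 and 1.36 in Y6M and 19.7 ± 0.24 in Y4Y (log2 fold change 3.30 ± 0.23 (SE), adjusted p = 2.48e-06). *BUB1* was at 1.47, 2.76 and 4.35 and 72.5 ± 5.98 (log2 fold change 4.14 ± 0.32 (SE), adjusted p = 5.01e-06). The groups were far apart for all 3 genes. In CY, *CCNE2* stood at a mean of 15.9 ± 6.07, nearer to Y4Y, whereas *CCNA1* stood at 2.35 ± 0.19, nearer to Y6M. *CDC20* was at 1.82, 6.35 and 8.71 in Y6M (log2 fold change 3.14 ± 0.42 (SE), adjusted p = 1.59e-04). *CDC20B* had 4 counts over the 3 libraries of Y6M and 251 over those of Y4Y, a ratio of 113 after scaling to library size (95% counting interval 43.6 to 419). With TMM, edgeR gave a smaller change (log2 fold change 6.12 ± 0.66, or 69.7-fold). *CDC34* was at 56.9, 52.1 and 57.1 in Y6M and higher in Y4Y (log2 fold change 1.91 ± 0.15 (SE), adjusted p = 5.88e-06). *CDC27* of the APC/C core was called as well (1.06 ± 0.19) and lost its call without replicate 1 of Y6M or replicate 3 of Y4Y.

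The mitotic kinases and phosphatases included calls in both directions. *PLK1* was at 1.17, 2.33 and 3.51 in Y6M (log2 fold change 3.32 ± 0.32 (SE), adjusted p = 2.07e-05). *PLK4* was at 1.45, 1.92 and 2.32 (log2 fold change 2.14 ± 0.23 (SE), adjusted p = 3.50e-05). *AURKA* was at 0.88, 3.02 and 2.95 (log2 fold change 2.81 ± 0.36 (SE), adjusted p = 1.05e-04). All 3 kinases were above every Y6M library in each Y4Y library, while *AURKB* was at 2.7, 4.09 and 6.67 in Y6M and was not called (−0.19 ± 0.30, adjusted p = 0.584). *CDC25C* was at 0.25, 0.76 and 1.36 (log2 fold change 3.98 ± 0.45 (SE), adjusted p = 5.43e-05), and *CDC14A* at 1.72, 1.97 and 1.88 (log2 fold change 2.72 ± 0.17 (SE), adjusted p = 1.31e-06). *CDC25B* was called lower in Y4Y, although its FPKM of 0.89, 1.87 and 2.87 in Y6M overlapped with that of 0.69, 0.73 and 1.12 in Y4Y (log2 fold change −1.68 ± 0.45 (SE), adjusted p = 0.00827), and it was not called with library size alone (−1.14, adjusted p = 0.0545) or on FPKM. *CDK1* was at 3.93, 11.2 and 15.7 in Y6M (log2 fold change 1.49 ± 0.40 (SE), adjusted p = 0.00823). *CDK2* was at 9.14, 13.4 and 17.1 (log2 fold change 1.85 ± 0.20 (SE), adjusted p = 4.51e-05). Both kinases of the later cell cycle were higher in Y4Y. *CDK6*, a kinase of G1, was lower at under 2-fold (−0.77), but its FPKM overlapped between the groups. Over the settings the value of *CDK6* ranged from −0.85 to −0.19, so the size of its fall depended on the setting. *CDK8* was at 5.59, 7.79 and 5.27 in Y6M and was called higher in Y4Y, at 1.81 on the log2 scale. Cyclin-B2 was at 1.58, 3.97 and 5.87 (log2 fold change 3.43 ± 0.32 (SE), adjusted p = 1.66e-05), and MAD2A at 9.47, 12.97 and 14.7 (log2 fold change 2.10 ± 0.18 (SE), adjusted p = 8.94e-06). Cyclin-B3 was at 1.06, 4.25 and 1.14 (log2 fold change 1.76 ± 0.50 (SE), adjusted p = 0.0117). These 3 rows without a symbol were higher in each Y4Y library than in any Y6M library.

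Of the 9 replication genes, 2 were called with age, against 31.0% higher and 24.7% lower of all genes tested. *CDC6* (1.22 ± 0.40, adjusted p = 0.0221) and *MCM6* (1.11 ± 0.24, adjusted p = 0.00287) were called higher, and both lost the call without replicate 1 of Y6M, at 0.889 and 0.886. *CDC6* also lost it without replicate 2 of Y4Y. *MCM2* was at 9.48, 21.2 and 29.4 in Y6M and 40.9, 51.3 and 47.5 in Y4Y and missed the threshold (0.68 ± 0.30, adjusted p = 0.0702). It was called higher without replicate 3 of Y6M (1.02, adjusted p = 0.00971) and with library size alone (1.22, adjusted p = 0.00855). *MCM3*, *MCM5* and *MCM7* were not called (−0.15 ± 0.24, 0.56 ± 0.24 and 0.04 ± 0.20), but *MCM5* was called higher with library size alone (1.10, adjusted p = 0.00558). *MCM9* had a log2 fold change of −0.67 ± 0.19 (adjusted p = 0.0126). Its FPKM overlapped between the groups, with a mean of 2.42 in Y6M and 2.31 in Y4Y. Over the settings its change ranged from −0.71 to −0.04, so a lower level of *MCM9* depended on the scaling.

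The members and rows called lower in the adult included *CCND3*, cyclin-D2 and 5 members around *CDC42*. *CCND3* was at 31.6, 30.2 and 37.2 in Y6M and 9.67, 10.5 and 10.8 in Y4Y (log2 fold change −2.06 ± 0.17 (SE), adjusted p = 7.21e-06). Cyclin-D2 was at 92.7, 123 and 137 in Y6M and 45.7, 83.8 and 51.2 in Y4Y (log2 fold change −1.53 ± 0.23 (SE), adjusted p = 2.99e-04), and its change was −0.96 with library size alone. The first CDK4 row was at 56.1, 80.4 and 89.8 in Y6M and 33.2, 31.8 and 33.5 in Y4Y (log2 fold change −1.75 ± 0.16 (SE), adjusted p = 1.37e-05). These 3 genes of G1 were thus lower in Y4Y than in Y6M without overlap. Of the other genes of G1, *CDK6* overlapped in FPKM and *CCND1* was not called (0.13 ± 0.29). The FPKM of *CCND1* was higher in each Y4Y library than in any Y6M library (means 6.77 and 4.18). *CCNA2* and *CCNE1* were not called either (0.62 ± 0.33 and 0.94 ± 0.24), although *CCNE1* had an adjusted p of 0.00699. In FPKM both were higher in each Y4Y library than in any Y6M library. Both were called higher with library size alone, at 1.16 for *CCNA2* and 1.51 for *CCNE1* (adjusted p = 0.0150 and 4.83e-04). *CCNE1* was also called higher with DESeq2 (1.02, adjusted p = 3.93e-04). Of the 7 members around *CDC42*, 5 were called lower, against 24.7% of all genes tested. *CDC42* itself was lower at under 2-fold (−0.95 ± 0.15, adjusted p = 3.99e-04), and *CDC42SE2* was higher at under 2-fold (0.54 ± 0.14, adjusted p = 0.00673). *CDC42EP1* was at 9.03, 7.63 and 9.31 in Y6M and 1.71, 1.46 and 1.65 in Y4Y (log2 fold change −3.0 ± 0.25 (SE), adjusted p = 8.06e-06). *CDC42SE1*, which encodes a small CDC42-binding protein, was at 140.1, 215 and 186 in Y6M and 74.99, 59.3 and 88.9 in Y4Y (log2 fold change −1.84 ± 0.19 (SE), adjusted p = 3.29e-05). *CDC42EP3*, *CDC42EP4* and *CDC42BPA* had −1.38 ± 0.39, −1.44 ± 0.18 and −1.0 ± 0.16, and none of these 3 was called with library size alone. *CDC42BPA* held its call in 2 of the 6 fits that left out 1 library. *CDK14*, a kinase of Wnt signalling, was at 9.3, 10.3 and 13.3 in Y6M and 5.65, 2.96 and 6.04 in Y4Y (log2 fold change −1.77 ± 0.27 (SE), adjusted p = 3.42e-04). *CDC123*, which helps to assemble the initiation factor eIF2, was at 31.8, 42.1 and 42.7 in Y6M and 12.7, 13.3 and 16.7 in Y4Y (log2 fold change −1.93 ± 0.16 (SE), adjusted p = 7.49e-06). The calls of *CCNG2* (−1.36 ± 0.20) and *CDK5* (−1.06 ± 0.15) were also lost with library size alone, at −0.80 and −0.49. *CDK18* fell from 136 counts in Y6M to 9 in Y4Y, an 8.38-fold lower rate after scaling to library size (95% counting interval 4.29 to 18.7). With TMM, edgeR gave an 11.8-fold lower level (log2 fold change −3.56 ± 0.62).

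**Figure D3:**
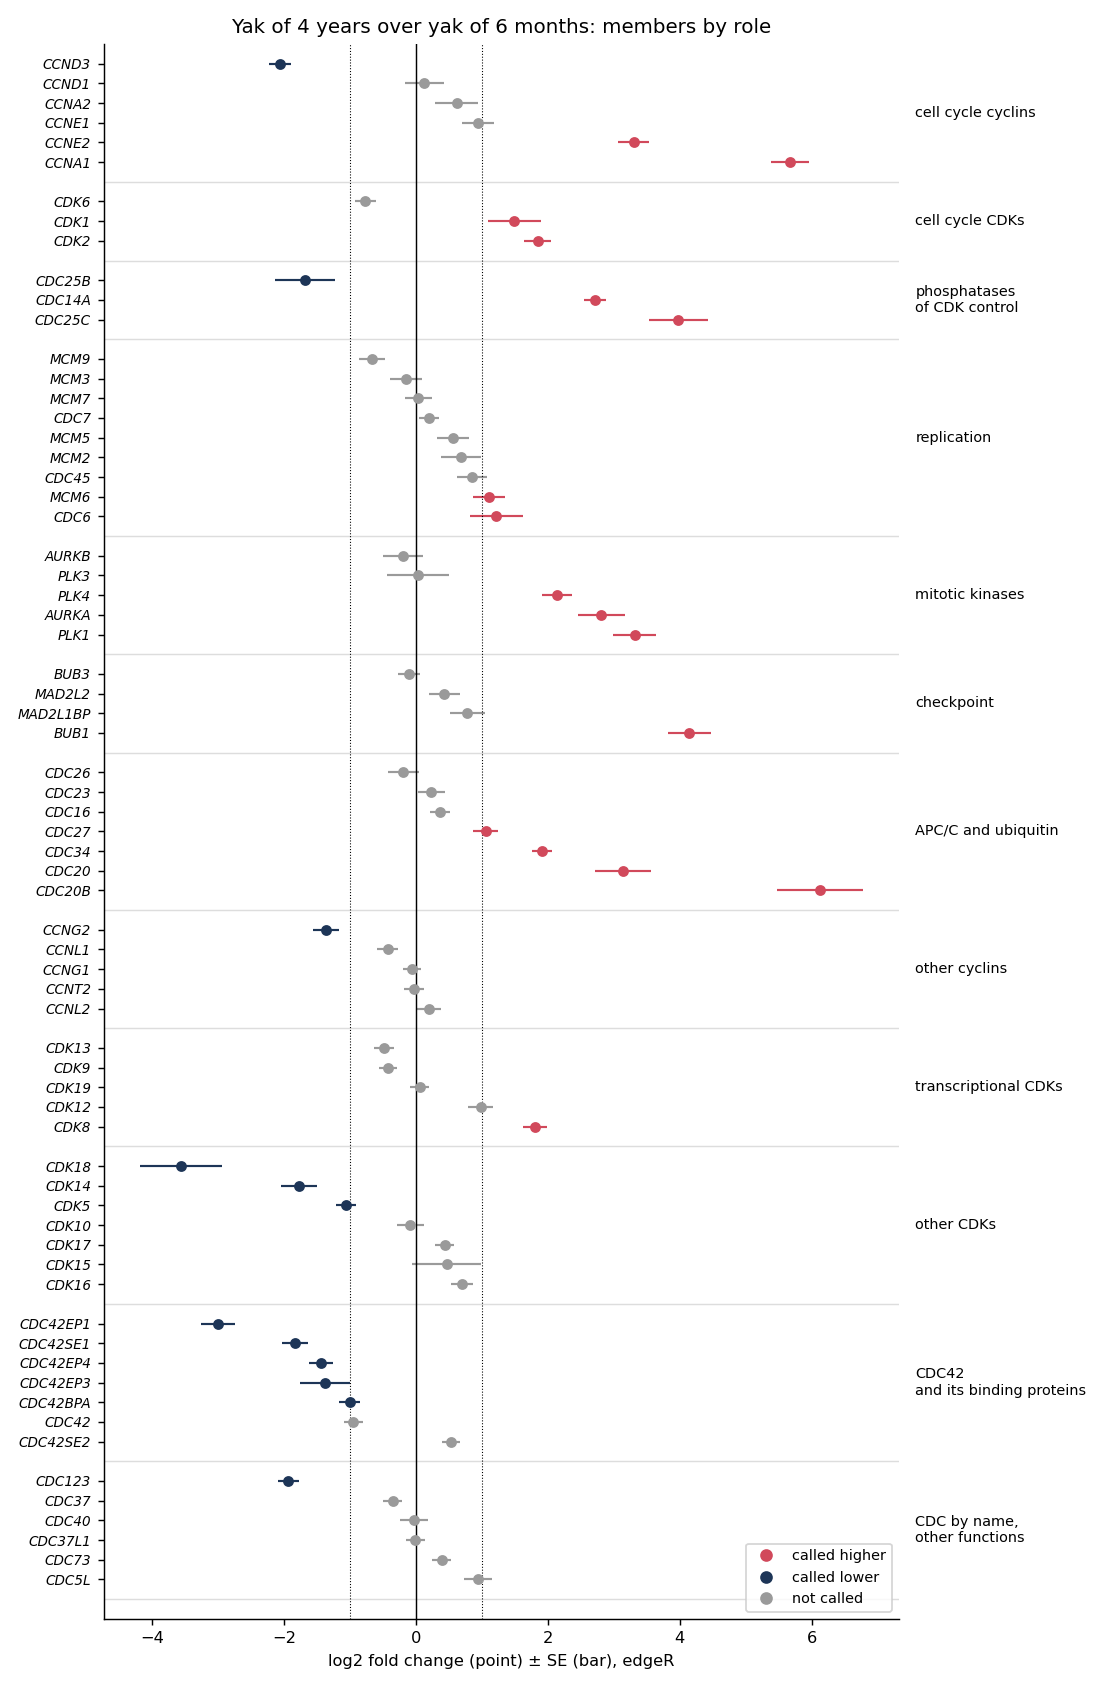
Log2 fold change of Y4Y over Y6M from edgeR (x axis) of the 67 members tested, grouped by role, with bars for ± 1 SE, dotted lines at 2-fold and colours for the call. *CCNA1* at 5.67 and *CDC20B* at 6.12 lie farthest right, and 5 of the 7 members of the *CDC42* group are called lower.

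Markers of testis cell types also changed with age. Over all genes tested, 31.0% were called higher and 24.7% lower in Y4Y, and the counts of called markers stand against these shares. Summed FPKM in Y6M was 135 to 200 for spermatocyte markers, 1.28 to 2.51 for round spermatid markers, 6068 to 7516 for Sertoli cell markers and 1689 to 2654 for Leydig cell markers. Between Y6M and Y4Y, 7 of 8 spermatocyte and 6 of 6 round spermatid markers were called higher, and 4 of 5 Sertoli and 3 of 3 Leydig cell markers lower. All 5 elongating spermatid markers were called higher. Of the spermatogonial markers 2 of 7 were higher and 1 lower, of the myoid cell markers 2 of 5 were lower, and of the endothelial markers 4 of 5 were lower. Of 4 macrophage markers 1 was higher and 1 lower, and their sum was 72.6 to 90.0 in Y6M and 222 to 256 in Y4Y. The higher 1 was *AIF1*, with a mean of 32.1 FPKM in Y6M and 194 in Y4Y, which made up most of the sum in Y4Y. The lower 1 was *CSF1R*, with 28.8 and 13.35. Most of the Sertoli cell sum in Y6M was *INHA*, with a mean of 6580 FPKM, and most of the Leydig cell sum was *STAR*, with 1890. *SPACA4* and *SUN5* of the round spermatid list had no count in any Y6M library. The part of these markers in the changes of the members was not tested.

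Yak of 18 months could not be placed as a group between the other ages. Comparing Y18M with Y6M, 0 of 66 members tested were called by edgeR in either direction, against 0.0202% of all 14874 genes called higher and 0.0471% called lower. An unadjusted p below 0.05 was found for 14 members and for 25.8% of all genes. DESeq2 called 1 member higher and 0 lower, and 1061 and 807 of all genes. Comparing Y4Y with Y18M, 0 of 66 members were called, against 0% higher and 0.0371% lower of all 16175 genes. Here 16 members and 35.4% of all genes had an unadjusted p below 0.05. DESeq2 called 7 members higher and 5 lower, and 2092 and 2291 of all genes. The members not tested were *CDC20B* and *CDK3* in the first and *CDK18* and *CDK3* in the second comparison. The largest changes of Y18M over Y6M were 3.69 ± 1.19 for *CCNA1* (adjusted p = 0.125), 2.51 ± 1.15 for *CDC25C* (adjusted p = 0.219) and 2.19 ± 0.94 for *BUB1* (adjusted p = 0.198). Their standard errors reflect the distance between the 3 libraries.

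The individual libraries of Y18M showed where this distance lay. *CCNA1* was at 1.64, 34.5 and 2.22 FPKM in replicates 1, 2 and 3. *BUB1* was at 2.78, 42.04 and 5.83 and *CDC20* at 3.38, 50.95 and 9.17. For these genes replicate 2 was nearer to Y4Y but below all its libraries, and replicates 1 and 3 were nearer to Y6M. *CCNA2* was at 3.78, 10.9 and 16.6, *MCM6* at 23.8, 71.9 and 61 and *AURKB* at 3.64, 7.47 and 10.9, so here replicates 2 and 3 were high and replicate 1 was low. *CCNE2* at 0.64, 15.1 and 4.26, *AURKA* at 5.16, 19.1 and 13.2, *PLK1* at 2.15, 19.8 and 7.99 and *CDK1* at 8.03, 40.7 and 20.97 had replicate 3 between the other two. Cyclin-B2 at 4.08, 40.3 and 23.7 and MAD2A at 19.1, 81.5 and 63.5 gave the same order. Of the 17 members that were higher in Y4Y than in Y6M, replicate 1 was at or below the highest Y6M library for 12, replicate 2 for 0 and replicate 3 for 1. Replicate 2 reached the lowest Y4Y library for 6 of them, replicate 3 for 1 and replicate 1 for 0. These positions were not counted over all genes, so whether they are particular to the members was not tested. *CDC25C* at 0.43, 14.5 and 2.53, *CDC14A* at 1.69, 9.24 and 1.53 and *CDC34* at 57.6, 224 and 59.4 were raised in replicate 2 but not to the level of Y4Y.

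**Figure D4:**
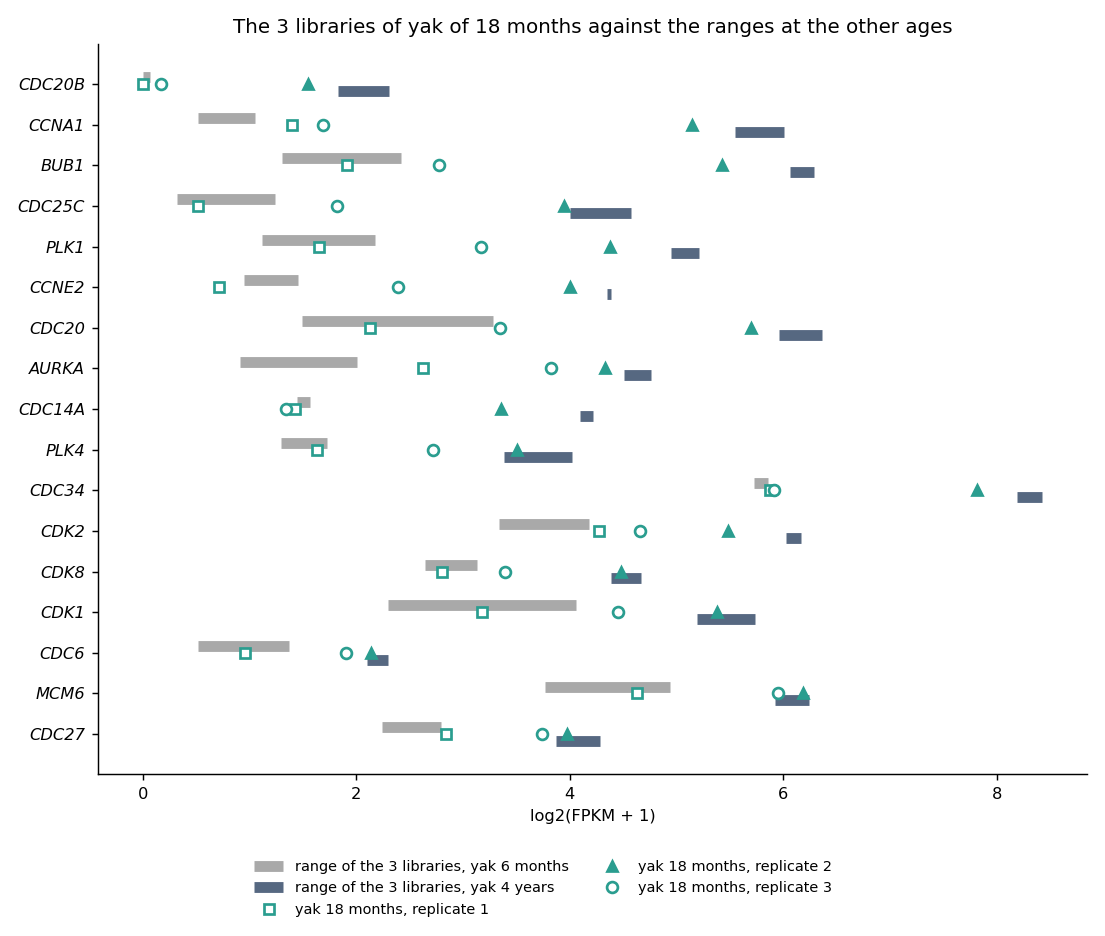
The 17 members called higher in Y4Y over Y6M (y axis) on a log2(FPKM + 1) axis. Grey and dark blue bars span the 3 libraries of Y6M and of Y4Y, and green symbols are the 3 single libraries of Y18M (square, filled triangle and circle for replicates 1, 2 and 3). Replicate 2 reaches the lowest Y4Y library for 6 genes, and replicate 1 lies at or below the highest Y6M library for 12 genes. These counts were not made over all genes.

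Leaving out 1 library of Y18M changed the number of calls. Without replicate 2, 16 members were called higher and 10 lower in Y4Y than in Y18M, with 4277 and 3033 of all 16377 genes. Among them *CCNA1* was 4.62 higher on the log2 scale (adjusted p = 1.91e-05), *BUB1* 3.91 (adjusted p = 6.99e-05) and *CDC20* 3.35 (adjusted p = 3.96e-04), and *CCND3* changed by −1.28 (adjusted p = 0.00319). Without replicate 1, 6 members were called higher and 1 lower in Y18M than in Y6M, with 1344 and 1249 of all 15454 genes. The 6 were *CCNA1*, *AURKA*, *CCNE2*, *PLK1*, *PLK4* and *MCM6*, and the 1 was *CCND3*. The labels give no difference between the 3 animals of this age.

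Ratios of related genes within a library do not depend on the scaling between libraries. With 3 libraries per group, the exact two-sided permutation test cannot give a p below 0.1, and 9 ratios were computed for each of the 4 comparisons. The log2 ratio of *CCNA1* over *CCNA2* was −2.5 ± 0.46 (SD, n = 3) in Y6M, 2.51 ± 0.28 in Y4Y and −2.20 ± 0.37 in CY. It was −1.20, 1.66 and −2.91 in the 3 libraries of Y18M. The meiotic cyclin A was thus above the general form in Y4Y and in replicate 2 of Y18M, and below it in all libraries of Y6M and CY. The ratio of *CCNE2* over *CCNE1* was −0.69 ± 0.40 in Y6M, 1.76 ± 0.13 in Y4Y and 1.59 ± 0.45 in CY. In CY it overlapped with Y4Y, with a difference of −0.17 (exact permutation p = 0.6). *AURKA* over *AURKB* was −1.08 ± 0.60 in Y6M, 2.03 ± 0.05 in Y4Y and 0.49 ± 0.17 in CY. *CDC25C* over *CDC25B* was −1.40 ± 0.39, 4.43 ± 0.13 and 1.63 ± 0.51. For both pairs CY lay between Y6M and Y4Y without overlap, and each difference between CY and Y4Y had the smallest p of 0.1. *CDK1* over *CDK2* was −0.54 ± 0.60, −0.63 ± 0.31 and −0.46 ± 0.29, and all groups overlapped. *PLK4* over *PLK1* was −0.19 ± 0.46, −1.52 ± 0.49 and −0.63 ± 0.10. *MCM9* over *MCM2* was −2.91 ± 0.72, −4.33 ± 0.15 and −5.13 ± 0.36. Cyclin-D2 over *CCND3* was 1.82 ± 0.24, 2.49 ± 0.44 and 0.75 ± 0.26, and cyclin-D2 over *CCND1* was 4.81 ± 0.29, 3.14 ± 0.23 and 1.97 ± 0.53.

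**Figure D5:**
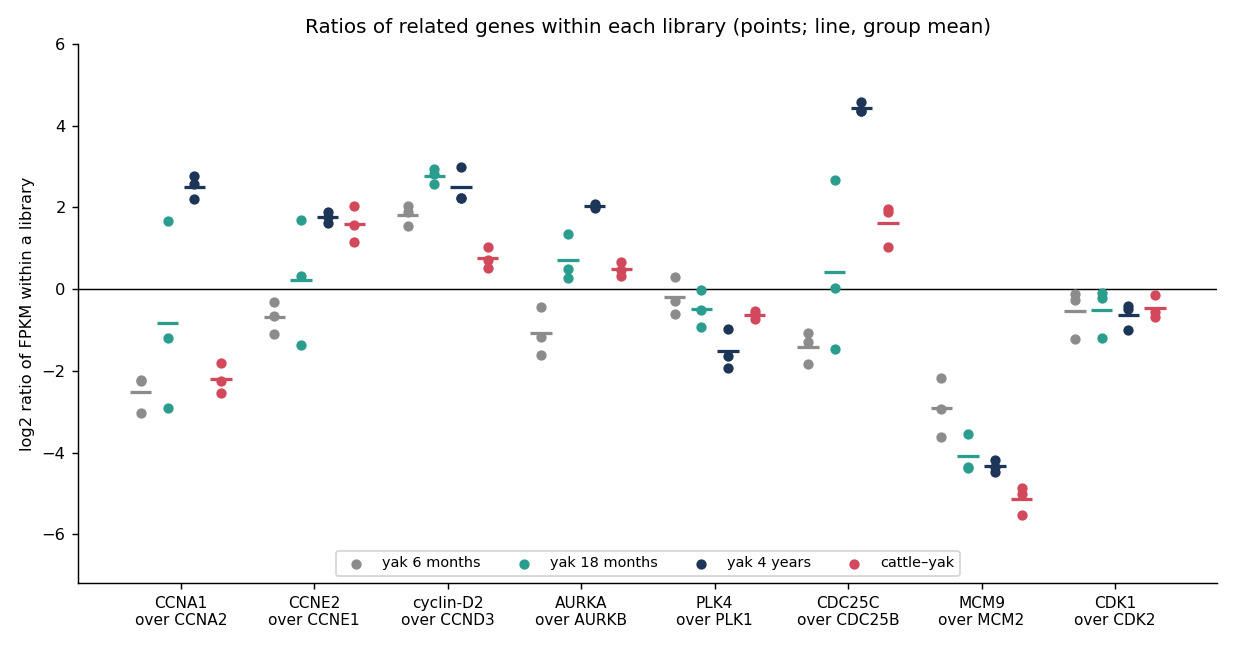
Log2 ratio of FPKM within a library (y axis) for 8 pairs of related genes, with a point per library, a line for the mean of each group and colours for the 4 groups. *CCNA1* over *CCNA2* lies above 0 in all Y4Y libraries and below 0 in all CY libraries, whereas *CCNE2* over *CCNE1* lies above 0 in both.

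The regulators around these genes were described with 6 lists of pathway genes outside the rule. Each count of called genes stands against the 17.1% higher and 27.0% lower of all genes in CY over Y4Y and the 31.0% and 24.7% in Y4Y over Y6M. Of 21 CDK inhibitors, retinoblastoma proteins and E2F factors tested, 2 were higher and 8 lower in CY (median −0.88), and 12 were higher and 1 lower in Y4Y over Y6M (median 1.23). *CDKN3*, a phosphatase of CDKs, was at a mean of 199 ± 5.59 FPKM (SD, n = 3) in Y4Y and 12.1 ± 3.64 in CY, the lowest change of the list (−4.00 ± 0.23), and it had the highest change in Y4Y over Y6M (6.16 ± 0.39). *CDKN1A*, the p21 inhibitor, was highest in CY with 210 ± 27.1 FPKM against 71.5 ± 4.42 in Y4Y (1.56 ± 0.13). *CDKN1B*, the p27 inhibitor, was lower in Y4Y than in Y6M (−1.73 ± 0.13). Of 17 CDK partners and CDK-like kinases, 1 was higher and 7 lower in CY (median −0.65), and 9 were higher and 4 lower in Y4Y over Y6M (median 1.34). *CDKL3* was at 25.1 ± 3.91 FPKM in Y4Y and 0.53 ± 0.33 in CY (−5.49 ± 0.40), and *CDK2AP1*, a CDK2-associated protein gene, at 108 ± 11.3 and 297 ± 32.9 (1.48 ± 0.13). *SPDYA*, an activator of CDK2 needed in meiosis, had 4 counts over the Y6M libraries and 1463 over those of Y4Y. The ratio was 660 after scaling to library size (95% counting interval 257 to 2424), and the log2 fold change from edgeR with TMM was 8.68 ± 0.40. *CDK2AP2* was lower in Y4Y (−2.05 ± 0.35).

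Of 37 genes of origin licensing and the replication fork, 5 were higher and 3 lower in CY (median 0.34), and 10 were higher and 3 lower in Y4Y over Y6M (median 0.40). *GINS3*, a subunit of the replicative helicase, was at 6.67 ± 0.79 FPKM in Y4Y and 32.4 ± 1.95 in CY (2.32 ± 0.18). *DBF4*, the activator of CDC7, was at 60.8 ± 12.3 and 10.4 ± 3.78 (−2.52 ± 0.27), and it had risen from 1.73 ± 0.70 in Y6M (4.58 ± 0.28). *CDC7* itself differed by −0.03 ± 0.15 between CY and Y4Y, so kinase and activator did not change alike. *ORC2*, of the origin recognition complex, was lower in Y4Y than in Y6M (−2.64 ± 0.14). Of 21 genes of mitotic kinases, spindle checkpoint and kinetochore, 1 was higher and 8 lower in CY (median −0.76), and 18 were higher and 0 lower in Y4Y over Y6M (median 1.93). *NUF2*, of the outer kinetochore, was at 96.6 ± 26.2 in Y4Y and 16.9 ± 4.65 in CY (−2.5 ± 0.26). *TPX2*, which activates Aurora A on the spindle, was at 29.3 ± 3.48 and 65.3 ± 14.1 and was the called gene with the higher level in CY (1.17 ± 0.18). *HASPIN*, a histone H3 kinase, had the largest rise with age (4.40 ± 0.23).

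Of 12 genes of the APC/C, its regulators and cohesin cleavage, 1 was higher and 3 lower in CY (median −0.38), and 3 were higher and 3 lower in Y4Y over Y6M (median 0.54). *FBXO43*, an inhibitor of the APC/C in meiosis, was at 36.6 ± 2.87 in Y4Y and 2.08 ± 1.31 in CY (−4.10 ± 0.41). It had 3 counts over the Y6M libraries and 3685 over those of Y4Y, a ratio of 2215 after scaling to library size (95% counting interval 757 to 10746). The log2 fold change from edgeR with TMM was 10.4 ± 0.34. *ANAPC16* was higher in CY than in Y4Y (1.01 ± 0.16) and lower in Y4Y than in Y6M (−1.49 ± 0.17). Of 14 genes of the DNA damage checkpoint and of CDK1 inhibition, 1 was higher and 5 lower in CY (median −0.16), and 5 were higher and 3 lower in Y4Y over Y6M (median 0.28). *PKMYT1*, which phosphorylates and inhibits CDK1, was at 0.65 ± 0.25 FPKM in Y6M, 24.9 ± 3.91 in Y4Y and 4.85 ± 0.65 in CY (4.69 ± 0.28 for Y4Y over Y6M). *WEE2* had 52 counts over the Y4Y libraries and 3 over those of CY, a 43.3-fold lower rate in CY (95% counting interval 14.0 to 217). In both comparisons with Y18M, 0 genes of these 6 lists were called. Counting intervals cover the counting error of pooled counts only, not the spread between animals.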

How the data were processed

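Ribo-seq libraries of 12 testes, each taken as a separate animal, were used in 4 groups of 3. Per the study's methods, the authors trimmed reads with fastp, kept fragments of 20 to 40 nucleotides, removed ribosomal RNA reads with Bowtie2 and other non-coding RNA reads by BLAST search, aligned the rest to the yak genome BosGru 3.0 with STAR and quantified genes with RSEM. The authors deposited expected counts per gene, whole numbers here, and FPKM values, which they scaled by gene length and mapped reads. Columns with the authors' own fold changes and p-values were not used. Cattle alleles of the cattle–yak were aligned to the yak genome, and the effect of this on its counts was not tested.

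Counts were tested with edgeR 4.0.16 in R 4.3.3 (filterByExpr, TMM, quasi-likelihood test, Benjamini-Hochberg adjustment over all genes tested) for each pair of groups. A call needed both a change of 2-fold or more and an adjusted p under 0.05. Named genes were, in each comparison, up to 10 called members per direction with a mean of at least 1 FPKM in either group, the main cyclins, CDKs, phosphatases, MCM, mitotic kinase and checkpoint genes whatever their result, and the called gene of largest change in each direction of each pathway list. Other called members were named after their values were seen. The members and lists were chosen with earlier results of these data known. Y4Y over Y6M was added after the spread of Y18M had been seen. The alternatives were DESeq2 1.42.0, limma 3.58.1 on log2(FPKM + 1) and log2(FPKM + 0.1), RLE scaling, library size alone, no filter, all 12 libraries in the fit, the replicate number as a block, and leaving out each library. The test was tested on simulated data with 200 changed genes. For CY over Y4Y, over 16416 genes, it recovered 25% of 2-fold, 75.4% of 4-fold and 91.7% of 8-fold changes. For Y4Y over Y18M, over 16182 genes, it recovered 0%, 0% and 24.4%. Counting intervals are exact 95% intervals, and the ratios given with them use pooled counts scaled to library size, without TMM. Promoter and protein sequences were not analysed here. For 1 pathway list, a gene that this rule names is not reported here.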

Additional observations from a re-analysis of the deposited data

How the results depend on the processing

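In CY over Y4Y, limma on log2(FPKM + 1) called 4 members higher in place of 9, and 2237 of all genes in place of 2814. Leaving out single libraries gave 9 to 12 members higher and 11 to 11 lower, with 2673 to 3121 and 4126 to 4438 of all genes. In Y4Y over Y6M, the 17 higher members became 28 with library size alone, 28 with limma on log2(FPKM + 1) and 29 on log2(FPKM + 0.1). The 12 lower members became 6, 5 and 6. Over all genes, 5009 higher became 6596, 5652 and 6617 with these 3 settings, and 3985 lower became 2493, 2051 and 2474. Leaving out single libraries gave 14 to 21 members higher and 10 to 13 lower, with 4818 to 5125 and 3903 to 4000 of all genes. In Y18M over Y6M, the member counts of 0 became 1 higher with DESeq2, and 2 higher and 1 lower with all 12 libraries. Over all genes, 3 higher and 7 lower became 1061 and 807 with DESeq2, and 1827 and 828 with all 12 libraries. Leaving out single libraries gave 0 to 6 members higher and 0 to 1 lower, with 0 to 1344 and 0 to 1249 of all genes. In Y4Y over Y18M, the member counts of 0 became 7 higher and 5 lower with DESeq2, and 4 higher and 6 lower with all 12 libraries. Over all genes, 0 higher and 6 lower became 2092 and 2291 with DESeq2, and 1121 and 2365 with all 12 libraries. Leaving out single libraries gave 0 to 16 members higher and 0 to 10 lower, with 0 to 4277 and 0 to 3033 of all genes. The replicate numbers did not pair the samples. With the replicate number as a block, 9 members were higher and 11 lower in CY over Y4Y, 18 and 12 in Y4Y over Y6M, 0 and 0 in Y4Y over Y18M, and 1 and 0 in Y18M over Y6M. Of all genes, 2763 and 4384, 4851 and 3875, 0 and 0, and 235 and 303 were called in these comparisons. No called value changed its direction under these alternatives. The cause of these changes was not tested. Depth limits *CDC20B* in Y6M, *CDK18* in Y4Y and *CDK15* in CY, which rest on 4, 9 and 11 counts over 3 libraries.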

Other observations

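For a few members the ratio of mean FPKM differed from the ratio of counts scaled to library size. *CCNT2*, a cyclin of transcription elongation, had a log2 ratio of 1.31 in FPKM and 0.54 in scaled counts in Y4Y over Y6M. *CDK8* had 1.87 and 2.38 in Y4Y over Y6M, and −1.06 and −1.32 in CY over Y4Y. *CDC42BPA* had 0.62 and 0.23 in CY over Y4Y. The cause of these differences was not tested.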
